A study of Mus musculus with 6 samples.

Results

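The genes described here are 44 genes of glucose metabolism: the transporters that bring glucose in and carry lactate out, the enzymes of glycolysis, the controls of pyruvate dehydrogenase (PDH), the enzymes of glycogen, and those of the pentose phosphate pathway. They were chosen by gene symbol from these pathways, with earlier results of these data known, and 44 of the 44 were found among the 13595 genes of the deposited table. RNA was sequenced in 6 libraries of primary CD31-positive cells (CD31, the product of Pecam1, is a surface protein of endothelial cells) from the livers of C57BL6/J mice aged 4 weeks. Both groups received 100 µM indoxyl sulfate, a tryptophan metabolite that activates the aryl hydrocarbon receptor (AHR), and both were held for 6 h in hypoxia and nutrient deprivation. The groups differ by the label of sex only, with male replicates 4, 5 and 6 and female replicates 4, 5 and 6. The contrast therefore gives the difference between the labelled sexes under treatment. What indoxyl sulfate or hypoxia changes was not analysed here. The labels do not say whether a replicate is a mouse, an isolation or a culture well, so p-values measure the spread between these libraries, which may be technical.

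Glycolysis splits glucose into pyruvate and yields ATP without oxygen. Endothelial cells are known to draw much of their ATP from it. In low oxygen the transcription factor HIF-1 raises the RNA of glucose transporters, most glycolytic enzymes, lactate dehydrogenase A, the lactate exporter MCT4 and the PDH kinase Pdk1, which together turn pyruvate towards lactate. Glycogen stores glucose units for later use, and the pentose phosphate pathway uses glucose 6-phosphate to make NADPH and ribose. HIF-1 and the AHR share the dimer partner ARNT.

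The libraries held from 22303270 to 31189363 reads summed over all genes, and the first principal component, with 92.7% of the variance, separated the labelled sexes. Male replicate 4 stood apart in its group. The chi-square statistic per gene of its reads was 43.6 and 45.4 against the other male-labelled libraries, which gave 5.98 between them, and the female-labelled pairs gave 4.35 to 9.59. Xist, the X-inactivation RNA, lay between 0.124 and 0.458 in the male-labelled and between 234 and 324 in the female-labelled libraries. Y-linked genes were nevertheless present in all 3 female-labelled libraries, with Ddx3y at 48.5 to 57.7 against 47.2 to 76.3 in the male-labelled ones and Kdm5d at 17.6 to 20.8 against 30.7 to 37.5. The groups are therefore called by their labels throughout.

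Markers of several cell types differed together with the labelled sex. Of 13 endothelial markers tested, 11 were lower and 1 higher in the female-labelled libraries (9 of 11 and 1 of 11 without Vwf and Robo4, which passed the minimum for testing only through the male-labelled libraries), and the summed level ran from 2388 to 2507 in the male-labelled and from 1220.0 to 1275 in the female-labelled libraries. Pecam1, the selection marker itself, was 405, 391 and 423 against 73.5, 73.8 and 74.5, and Vwf, a defining endothelial marker, was near 0 in the female-labelled libraries (34.9 to 40.3 against 0.374 to 0.570). Tek, Tie1, Flt1, Erg and Egfl7 were between 5.30% and 17.7% of the male-labelled level, Esam at 34.2%, Cdh5 at 41.9% and Emcn at 77.0%. Kdr was not called (3.63 ± 0.392 against 2.95 ± 0.636, SD, n = 3 each). Eng, the 1 endothelial marker called higher, was 313 ± 21.3 against 415 ± 13.9 (SD, n = 3 each). Of 7 sinusoidal endothelial markers only 2, Lyve1 (469.7 to 513 against 4.37 to 5.48) and Stab1 (14.2 to 18.5 against 1.61 to 2.21), were tested. Both were lower, and they made up most of the sum of the list (490.0 to 529 against 7.65 to 9.11). Stab2, Clec4g, Fcgr2b, Mrc1 and Oit3 were near or under 1 in all 6 libraries and were not tested. The smooth muscle and mural markers went the other way in sum, from 261 to 384 up to 2621 to 3339, with 5 of 8 higher and 3 lower. The contractile genes Acta2 (134, 56.4 and 45.9 against 1887, 1682 and 1513), Tagln, Myh11, Cnn1 and Des were higher, while the pericyte markers Pdgfrb (129, 133 and 136 against 14.6, 13.0 and 15.3), Rgs5 and Cspg4 were lower. Of 6 fibroblast and stellate markers 6 were lower (5 of 5 without Lum, which passed only through the male-labelled libraries), with sums of 2628 to 3354 against 943 to 955. The cholangiocyte and mesothelial markers gave 2 lower and 4 higher of 6 tested, with sums of 724 to 897 against 538 to 541. This sum holds opposite differences: the biliary markers Krt19 (461 ± 47.7 against 116 ± 20.2, SD, n = 3 each) and Sox9 (297, 364 and 397 against 58.4, 66.1 and 74.5) were lower, a further biliary keratin, Krt7 (1.84 ± 0.685 against 9.19 ± 1.45, SD, n = 3 each), was higher, and the mesothelial marker Msln (17.1, 20.5 and 20.6 against 358, 338 and 299) was higher. Wt1 and Upk3b, further mesothelial markers, were 11.7, 13.0 and 13.6 and 1.37, 3.80 and 4.65 in the female-labelled libraries and under 1 in the male-labelled ones, so that they could only be called higher. Epcam, the remaining marker of this list, was between 0.0353 and 0.522 in all 6 libraries and was not tested. Of 6 macrophage markers only 2, Cd68 and Csf1r, were tested, and both were higher. Lyz2 and Ptprc, at 1.41 or less in each library, were not tested, and Adgre1 and Clec4f were not in the table. The macrophage sums were 7.51 to 9.99 against 13.2 to 15.7. Hepatocyte markers summed to under 1 in each library, with Cyp3a11 at 0 reads in all 6, and 0 of 5 lymphocyte markers were in the table. Of 4 proliferation genes, 3 were lower and 1 higher, with sums of 805 to 1023 against 999 to 1167. In bulk RNA, fewer cells of a type and less RNA per cell cannot be told apart. The part of these markers in the results that follow was not tested.

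Most of the 44 genes were lower in the female-labelled libraries. Values are normalized read counts, that is whole reads divided by 1 factor per library, and are listed in the order of replicates 4, 5 and 6. A gene was called when its Benjamini-Hochberg adjusted p in the limma fit across 12568 genes was under 0.05. All 44 genes entered that fit. Of them 34 (77.3%) were called lower and 6 (13.6%) called higher, while 4 were not called. The background was high, since 69.3% of all tested genes were called, 34.6% lower and 34.6% higher. 1 of the 34, Aldoc, was under 1 in all 3 female-labelled libraries and passed the minimum for testing (a value of at least 1 in 3 libraries) only through its male-labelled values, so that it could only be called lower. Without such genes 33 of 43 members (76.7%) were lower and 6 (14.0%) higher, against 33.6% and 33.9% of 11882 genes. The members' share of lower calls was thus above that background and their share of higher calls below it. The median log2 fold change, female-labelled minus male-labelled on the log2(value + 1) scale, was -0.59 over the members and 0.01 over the 12568 genes. Below, ± after a log2 fold change is its standard error. The 3 values of each group did not overlap for 40 members (34 lower, 6 higher), as for 74.1% of all tested genes. With a log2 fold change of at least 1 required besides, 13 members were lower, against 12.1% of all tested genes, and 3 were higher, against 8.51%. Without Aldoc, 12 were lower.

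Counts by role are given as a description, beside the 34.6% lower and 34.6% higher of all tested genes. Of the 4 transporters 4 were lower, and of the 8 glycogen genes 8 were lower. Of the 17 glycolytic enzymes 15, Aldoc included, were lower, 1 was higher (Ldhb) and 1 was not called (Pfkp). The 3 bifunctional PFKFB enzymes split into 1 lower, 1 higher and 1 not called. The 6 genes of PDH control held 4 lower and 2 higher (Pdk4 and Pdha1). The 6 pentose phosphate genes held 2 lower, 2 higher and 2 not called, that is 33.3% in each direction, close to the share over all genes. Whether these shares differ between roles was not tested.

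**Figure D1:**
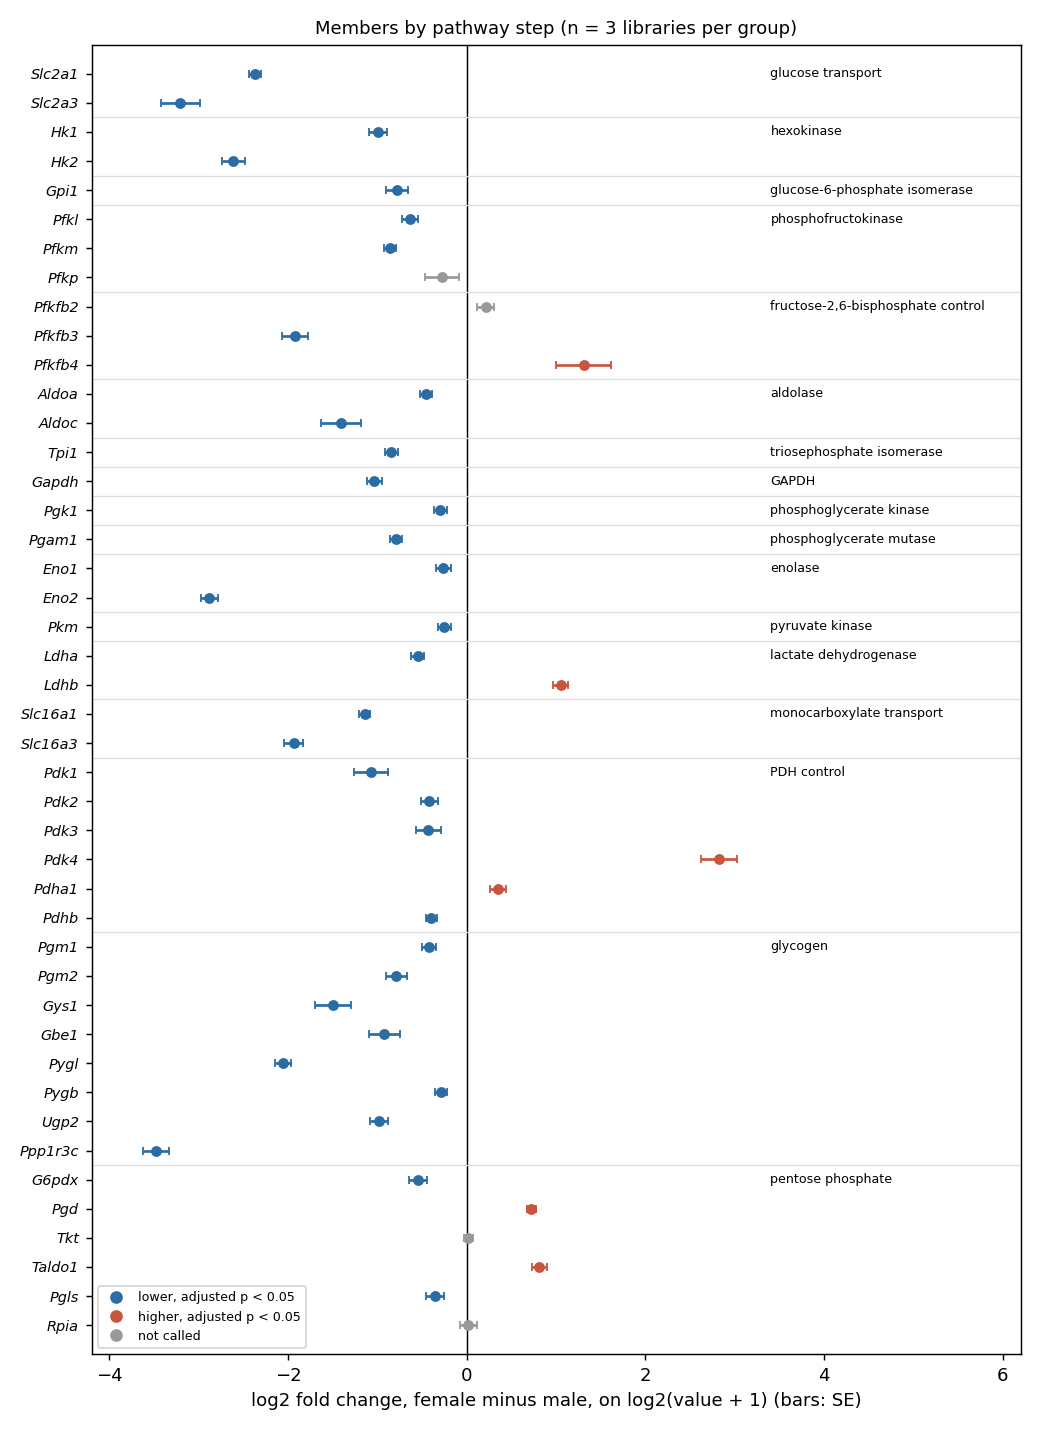
Log2 fold change (female-labelled minus male-labelled, log2(value + 1) scale, horizontal axis) of each of the 44 genes, ordered by pathway step; bars are standard errors and n = 3 libraries per group. Blue points (34) were called lower, red points (6) called higher and grey points (4) were not called; Ppp1r3c lies farthest to the left at -3.48 and Pdk4 farthest to the right at 2.82.

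Promoter sequence is shown for 8 members with large differences, 5 of them lower and 3 of them higher, so that the letters can be read beside the values. The 3 higher members had the largest increases, but the 5 lower ones are not strictly those with the largest decreases. Slc2a3 had no matched window. Pygl (log2 fold change -2.06, 1 ACGTG and 1 GCGTG in its window) is not shown, although it was lower by more than Slc16a3 (-1.94). The sequences are the 250 bases before the gene start in RefSeq (GRCm38.p6), printed 5′ to 3′ on the gene's strand, and lie 5′ of the first exon. The windows are Slc2a1 at chr4:119108495-119108744 on the plus strand, Hk2 at chr6:82774455-82774704 on the minus strand, Slc16a3 at chr11:120948817-120949066 on the plus strand and Ppp1r3c at chr19:36736605-36736854 on the minus strand. The others are Eno2 at chr6:124769674-124769923 on the minus strand, Pdk4 at chr6:5496279-5496528 on the minus strand, Pfkfb4 at chr9:108991652-108991901 on the plus strand and Ldhb at chr6:142507958-142508207 on the minus strand. Capitals mark ACGTG, a core bound by HIF, and GCGTG, a core shared by HIF and the AHR, on either strand.
Slc2a1: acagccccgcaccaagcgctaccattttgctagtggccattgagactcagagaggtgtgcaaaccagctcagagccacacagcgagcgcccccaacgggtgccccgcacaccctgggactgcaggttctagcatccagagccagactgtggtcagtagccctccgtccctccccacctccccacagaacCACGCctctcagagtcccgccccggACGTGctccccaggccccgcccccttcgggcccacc
Hk2: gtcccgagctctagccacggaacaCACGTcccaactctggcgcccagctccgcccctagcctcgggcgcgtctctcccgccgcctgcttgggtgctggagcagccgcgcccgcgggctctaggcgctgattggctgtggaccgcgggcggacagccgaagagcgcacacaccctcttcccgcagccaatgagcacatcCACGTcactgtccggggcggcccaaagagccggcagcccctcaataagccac
Slc16a3: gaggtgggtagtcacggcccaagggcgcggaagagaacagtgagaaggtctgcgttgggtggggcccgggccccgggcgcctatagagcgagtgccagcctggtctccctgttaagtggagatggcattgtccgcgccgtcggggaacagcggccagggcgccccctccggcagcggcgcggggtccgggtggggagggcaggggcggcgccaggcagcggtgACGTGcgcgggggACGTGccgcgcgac
Ppp1r3c: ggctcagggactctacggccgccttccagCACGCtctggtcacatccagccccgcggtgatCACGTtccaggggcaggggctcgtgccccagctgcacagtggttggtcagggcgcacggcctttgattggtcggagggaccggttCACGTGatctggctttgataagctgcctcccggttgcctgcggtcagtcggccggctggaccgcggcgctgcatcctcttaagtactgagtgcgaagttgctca
Eno2: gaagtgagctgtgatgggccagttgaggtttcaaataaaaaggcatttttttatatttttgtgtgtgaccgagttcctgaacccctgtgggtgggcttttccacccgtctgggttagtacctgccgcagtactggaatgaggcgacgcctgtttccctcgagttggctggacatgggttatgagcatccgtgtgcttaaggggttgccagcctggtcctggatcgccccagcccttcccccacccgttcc
Pdk4: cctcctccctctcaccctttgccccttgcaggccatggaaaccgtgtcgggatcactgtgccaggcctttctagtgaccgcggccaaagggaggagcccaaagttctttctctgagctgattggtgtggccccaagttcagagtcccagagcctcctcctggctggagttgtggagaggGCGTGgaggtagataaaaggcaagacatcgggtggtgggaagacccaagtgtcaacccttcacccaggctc
Pfkfb4: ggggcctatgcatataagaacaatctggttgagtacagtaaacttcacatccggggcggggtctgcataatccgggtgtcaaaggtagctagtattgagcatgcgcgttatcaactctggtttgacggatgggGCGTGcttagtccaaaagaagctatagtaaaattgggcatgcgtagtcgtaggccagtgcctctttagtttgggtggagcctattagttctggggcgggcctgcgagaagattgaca
Ldhb: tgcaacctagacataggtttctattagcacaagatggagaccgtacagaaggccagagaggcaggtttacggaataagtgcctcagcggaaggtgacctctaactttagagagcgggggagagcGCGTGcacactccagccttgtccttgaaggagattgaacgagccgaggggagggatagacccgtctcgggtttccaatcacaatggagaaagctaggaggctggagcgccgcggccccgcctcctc

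The Slc2a1 window held 1 ACGTG and 1 GCGTG, Hk2 and Slc16a3 held 2 ACGTG each, and Ppp1r3c held 3 ACGTG and 1 GCGTG. No match was found in the Eno2 window. Pdk4, Pfkfb4 and Ldhb held 1 GCGTG each. Over the members, 43 of 44 genes were matched to 61 windows, and windows of 1 gene can overlap. ACGTG was found in 25 windows (41.0%), against 16.6% of all 32851 windows of the table and 21.5% of the 12092 windows of tested genes. GCGTG was found in 35 (57.4%), against 28.2% and 44.7%. The longer AHR motif TNGCGTG, which contains GCGTG, was found in 5 (8.20%), against 4.10% and 6.56%. The E-box CACGTG contains ACGTG on both strands and is counted once for each, as in the Ppp1r3c window. Split by call, ACGTG was in 23 of 48 windows (47.9%) of the members called lower and in 0 of 7 windows of the 6 members called higher, while GCGTG was in 24 and 6 of them. These counts are a description with no test, and a match is a run of letters and not a shown binding site.

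Both glucose importers were lower. Slc2a1 encodes GLUT1, the main glucose carrier of endothelial cells. Its normalized read counts were 1721, 1709 and 1916 in the male-labelled libraries and 339.8, 341 and 347 in the female-labelled libraries. The groups were far apart, with means of 1782 ± 116 against 343 ± 4.07 (SD, n = 3 each), so that the female-labelled level was 19.2% of the male-labelled one (log2 fold change -2.37 ± 0.07, adjusted p = 4.91e-08). Slc2a3 encodes GLUT3, a carrier of higher affinity. It was 63.7, 38.3 and 45.2 in the male-labelled libraries and 3.57, 3.62 and 6.08 in the female-labelled libraries, or 9.01% in the female-labelled group (log2 fold change -3.21 ± 0.22, adjusted p = 4.63e-06). Male replicate 4 was the highest library, and the groups did not overlap. Together the pair, per kilobase of coding sequence, summed to 1241 ± 77.6 against 235 ± 3.72 (SD, n = 3 each).

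Hexokinase traps glucose in the cell as glucose 6-phosphate, and both isoforms were lower. Hk2, the isoform induced by insulin and low oxygen, was 1122, 1531 and 1674 in the male-labelled libraries and 230.2, 231 and 234 in the female-labelled libraries. Its mean was 6.22-fold lower in the female-labelled libraries (log2 fold change -2.61 ± 0.13, adjusted p = 8.34e-07), and male replicate 4 was the lowest of its group. Hk1, the broadly expressed isoform, had means of 952 ± 138 against 475 ± 6.01 (SD, n = 3 each). Its groups did not overlap (log2 fold change -0.99 ± 0.10, adjusted p = 3.47e-05). Gpi1, which turns glucose 6-phosphate into fructose 6-phosphate, was lower too, at 57.7% of the male-labelled level (log2 fold change -0.78 ± 0.12, adjusted p = 0.000615).

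Phosphofructokinase commits sugar to glycolysis. The liver-type gene Pfkl was at 64.0% and the muscle-type gene Pfkm at 54.3% of the male-labelled level (-0.64 and -0.86 on the log2 scale, adjusted p = 0.000283 and 1.30e-05). Pfkp, the platelet-type gene, was not called. Its values were 331, 186 and 194 in the male-labelled libraries and 177, 190.0 and 199 in the female-labelled libraries, and only male replicate 4 lay above the rest. The log2 fold change was -0.28 with a 95% interval from -0.72 to 0.17 (adjusted p = 0.232), and without male replicate 4 it was -0.01 (adjusted p = 0.847).

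The PFKFB enzymes make and remove fructose 2,6-bisphosphate, the strongest activator of phosphofructokinase, and they did not move together. Pfkfb3, the isoform with high kinase activity that endothelial cells use, was 651, 893 and 1006 in the male-labelled libraries and 212, 236 and 212 in the female-labelled libraries, a 3.86-fold lower mean in the female-labelled group (log2 fold change -1.92 ± 0.14, adjusted p = 7.60e-06). Pfkfb4 was low in both groups and higher in the female-labelled one, with 1.91, 5.99 and 5.97 in the male-labelled libraries and 11.8, 12.4 and 11.5 in the female-labelled libraries (log2 fold change 1.31 ± 0.31, adjusted p = 0.00505). Male replicate 4 was the lowest, and the log2 fold change without it was 0.89. Pfkfb2, the heart-type isoform, was 26.9, 21.7 and 21.8 in the male-labelled libraries and 27.1, 26.5 and 27.9 in the female-labelled libraries and was not called (log2 fold change 0.21, 95% interval -0.01 to 0.44, adjusted p = 0.0850). Male replicate 4 overlapped the female-labelled values, and without it Pfkfb2 was called higher, at 0.31 (adjusted p = 0.00233). Per kilobase of coding sequence the 3 genes together summed to 528 ± 109 against 157 ± 8.24 (SD, n = 3 each), that is 29.7% in the female-labelled libraries.

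The middle and lower steps of glycolysis were lower as well, with female-labelled means of Aldoa, Tpi1, Gapdh, Pgk1, Pgam1 and Pkm between 48.7% and 84.1% of the male-labelled ones. Aldolase A (Aldoa) was at 72.8% and triosephosphate isomerase (Tpi1) at 55.8% of the male-labelled level (adjusted p = 0.000260 and 1.13e-05). Gapdh, which makes the first NADH of the pathway, was 8002, 8015 and 8554 in the male-labelled libraries and 3856, 3996 and 4120.1 in the female-labelled libraries (log2 fold change -1.04 ± 0.08, adjusted p = 1.13e-05). It was lower in 3 of 3 female-labelled libraries than in any male-labelled one, and with quantile normalization the log2 fold change was -0.67. Phosphoglycerate kinase (Pgk1) was at 81.3%, phosphoglycerate mutase (Pgam1) at 57.7% and the muscle-type pyruvate kinase (Pkm) at 84.1% (adjusted p = 0.00681, 1.30e-05 and 0.0107). Without female replicate 5 the adjusted p of Pkm was 0.0505. Some of these genes share sequence with other genes: 53.9% of the 50-base words of Pgk1, 36.2% of those of Pgam1, 25.8% of those of Pkm and 24.7% of those of Gapdh also occur in another gene's transcripts, so their counts are less certain.

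Aldoc, the brain-type aldolase, was close to the limit of detection. It held 94, 55 and 50 reads in the male-labelled libraries and 3, 8 and 10 in the female-labelled ones, or normalized values of 3.90, 2.10 and 1.77 against 0.125, 0.354 and 0.475 (log2 fold change -1.41 ± 0.22, adjusted p = 0.000538). At this level the size depends on the method: the female-labelled mean was 12.3% of the male-labelled one, and the log2 fold change was -2.71 with a pseudocount of 0.1, -3.03 with edgeR and -3.05 with DESeq2. It entered the fit only through its male-labelled values, so that a call in this direction was the only one possible, and it dropped out when any male-labelled library was left out.

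The enolases, which make phosphoenolpyruvate, were both lower, Eno2 by the larger factor. Eno2, the gamma enolase known from neurons and from hypoxic cells, was 41.3, 35.8 and 38.3 in the male-labelled libraries and 4.19, 4.29 and 4.56 in the female-labelled libraries. The female-labelled mean was 11.3% of the male-labelled mean (log2 fold change -2.88 ± 0.09, adjusted p = 8.95e-08), and the spread within each group was small. Eno1, the main enolase, was 1227, 1099 and 1298 in the male-labelled libraries and 1001, 1066 and 946 in the female-labelled libraries (log2 fold change -0.26 ± 0.08, adjusted p = 0.0198). It lost its call without male replicate 6, female replicate 4 or female replicate 6 (adjusted p = 0.0760, 0.0613 and 0.0800) and with the replicate number as a block (0.0526). Eno1 also shares 25.3% of its 50-base words with genes of the table, among them its retrotransposed copy Eno1b. Eno1b itself was not called (1355 ± 186 against 1205 ± 92.0, SD, n = 3 each, adjusted p = 0.199), and the 2 genes summed to 2563 ± 219 against 2209 ± 62.3.

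Lactate dehydrogenase and the lactate carriers close the anaerobic branch. Ldha, whose subunit favours the step from pyruvate to lactate, was at 68.2% of the male-labelled level (log2 fold change -0.55 ± 0.07, adjusted p = 0.000191). Ldhb, whose subunit favours the reverse step, was higher: 9.62, 10.5 and 10.3 in the male-labelled libraries and 21.6, 22.8 and 21.7 in the female-labelled libraries (log2 fold change 1.05 ± 0.08, adjusted p = 1.02e-05). Its 2.18-fold higher mean exceeded the spread within either group, and 21.0% of its 50-base words also occur in another gene. Slc16a3 encodes MCT4, the exporter of lactate, and was 357, 271 and 296 in the male-labelled libraries and 71.4, 83.6 and 82.9 in the female-labelled libraries (log2 fold change -1.94 ± 0.11, adjusted p = 1.41e-06). Slc16a1 encodes MCT1, which carries lactate in either direction, and was 98.2, 94.4 and 106 in the male-labelled libraries and 43.3, 45.5 and 44.7 in the female-labelled libraries (log2 fold change -1.14 ± 0.07, adjusted p = 1.78e-06). Neither pair of groups overlapped. Bsg, the chaperone that both carriers need at the membrane, is named here after its values were seen and was at 35.7% of the male-labelled level (log2 fold change -1.48 ± 0.08, adjusted p = 1.03e-06).

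**Figure D2:**
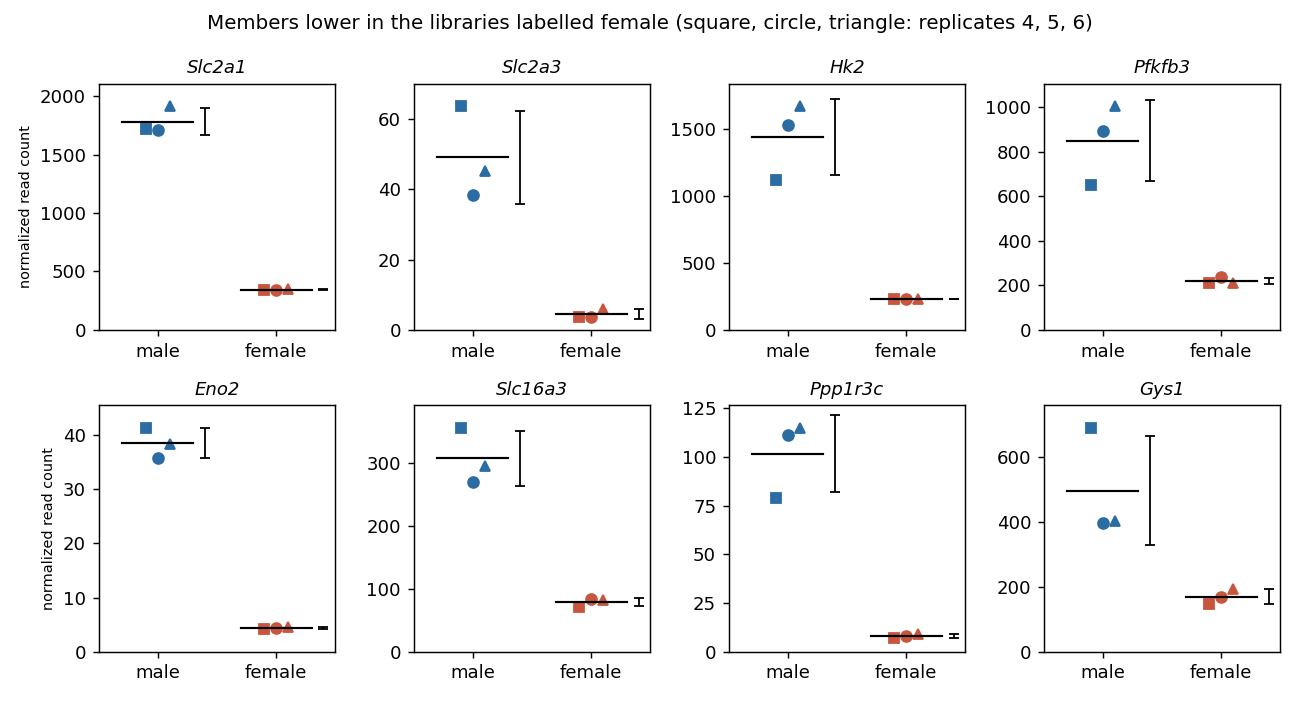
Normalized read count (vertical axis, from 0) of 8 members that were lower in the female-labelled libraries; each point is 1 library, horizontal lines are means and bars are SD (n = 3). In each panel the 3 female-labelled points lie below the 3 male-labelled points, and male replicate 4 (square) is the lowest male-labelled point for Hk2, Pfkfb3 and Ppp1r3c and the highest for Slc2a3, Slc16a3, Eno2 and Gys1.

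Set along the pathway, with all members of a step summed per kilobase of coding sequence, the female-labelled level was 19.0% of the male-labelled level for glucose transport, 29.3% for hexokinase, 57.7% for glucose 6-phosphate isomerase, 68.3% for phosphofructokinase and 72.7% for aldolase. It was 55.8% for triosephosphate isomerase, 48.7% for Gapdh, 81.3% for phosphoglycerate kinase, 57.7% for phosphoglycerate mutase, 80.9% for enolase and 84.1% for pyruvate kinase. It was 68.9% for lactate dehydrogenase and 30.2% for the lactate carriers. The ratio was thus smallest at entry, at phosphorylation and at export, and nearest to equality at phosphoglycerate kinase, enolase and pyruvate kinase. Gapdh had the highest level per kilobase of these steps in both groups, at 7605 and 3705. The differences between steps were not tested.

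The PDH complex turns pyruvate into acetyl-CoA for the mitochondria, and the PDH kinases switch it off by phosphorylation. Pdk4, the isoform raised by fasting and fatty acids, was 131, 75.9 and 73.3 in the male-labelled libraries and 688, 638 and 607 in the female-labelled libraries. It was 6.90-fold higher in the female-labelled group (log2 fold change 2.82 ± 0.20, adjusted p = 4.89e-06), the largest increase among the 44 genes. The other 3 kinases were lower. Pdk1, the hypoxia-induced isoform, was 304, 179 and 195 in the male-labelled libraries and 93.5, 101 and 120.4 in the female-labelled libraries (log2 fold change -1.07 ± 0.19, adjusted p = 0.00106), and without male replicate 4 its log2 fold change was -0.83. Pdk2 was at 73.1% (adjusted p = 0.00467) and Pdk3 at 72.7% of the male-labelled level (adjusted p = 0.0230). For Pdk3, leaving out male replicate 4 moved the log2 fold change from -0.43 to -0.26, and its call was lost without female replicate 4 or 5 (adjusted p = 0.0858 and 0.0522). The 2 subunits of the enzyme itself split. Pdha1 was 316, 249.6 and 257 in the male-labelled libraries and 333, 345 and 365 in the female-labelled libraries (log2 fold change 0.35 ± 0.09, adjusted p = 0.00966), and Pdhb was at 75.8% (log2 fold change -0.40 ± 0.06, adjusted p = 0.000475). The exons of Pdha1 overlap Map3k15 on the opposite strand over 16.1% of their length, and whether counting used strand is not given in the sources used here.

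**Figure D3:**
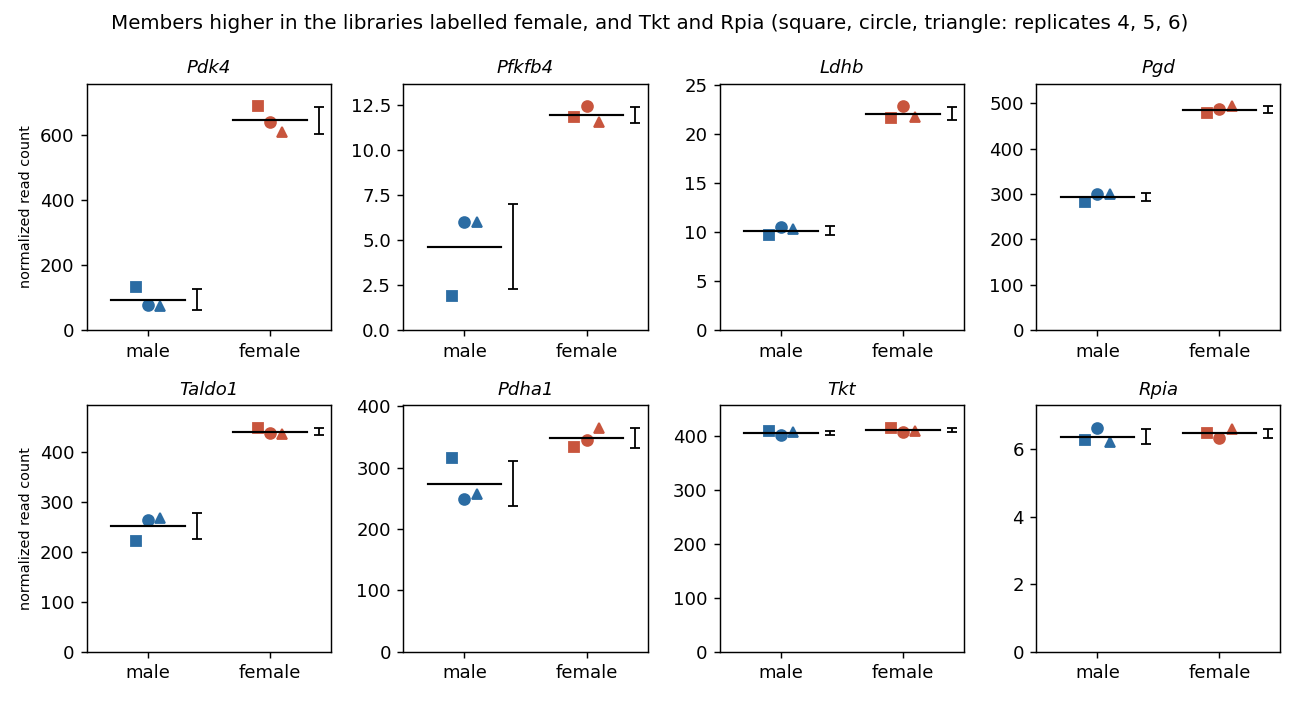
Normalized read count (vertical axis, from 0) of the 6 members called higher and of Tkt and Rpia, which were not called; points, lines and bars as in the plot of lower members. Pdk4 is at 73.3 to 131 in the male-labelled and 607 to 688 in the female-labelled libraries, Pdha1 has its male replicate 4 nearest to the female-labelled points, and Tkt and Rpia overlap between groups.

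The 8 glycogen genes were all lower, those of synthesis and those of breakdown. Ppp1r3c, the targeting subunit that brings protein phosphatase 1 to glycogen and favours storage, was 79.0, 111 and 115 in the male-labelled libraries and 7.26, 8.09 and 9.02 in the female-labelled libraries, a 12.5-fold lower mean (log2 fold change -3.48 ± 0.15, adjusted p = 3.28e-07) and the largest decrease among the 44 genes. Glycogen synthase, Gys1, was 691, 396 and 402 in the male-labelled libraries and 148, 168 and 194 in the female-labelled libraries (log2 fold change -1.50 ± 0.21, adjusted p = 0.000253). Male replicate 4 was far above the other male-labelled libraries, and without it the log2 fold change was -1.23. The branching enzyme Gbe1 was at 51.5% and Ugp2, which makes UDP-glucose, at 49.9% of the male-labelled level (adjusted p = 0.00156 and 4.27e-05). On the breakdown side Pygl, the liver-type phosphorylase, was 27.5, 27.8 and 28.4 in the male-labelled libraries and 5.64, 5.79 and 6.41 in the female-labelled libraries, or 21.3% (log2 fold change -2.06 ± 0.09, adjusted p = 3.32e-07). Pygb, the brain-type phosphorylase, differed less, at 81.9% (log2 fold change -0.28 ± 0.07, adjusted p = 0.00514). The phosphoglucomutases, which join glycogen to glucose 6-phosphate, were listed as Pgm1 at 74.1% and Pgm2 at 57.3% (adjusted p = 0.00133 and 0.000488). These 2 symbols were exchanged between annotation releases, and the table does not say which usage it follows. The exons of the gene annotated as Pgm1 overlap Itgb3bp on the opposite strand over 13.6% of their length.

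The pentose phosphate genes went in both directions within the oxidative branch. G6pdx, the first and rate-limiting enzyme and a source of NADPH, was 269.8, 280.4 and 283 in the male-labelled libraries and 163, 191 and 219 in the female-labelled libraries (log2 fold change -0.55 ± 0.10, adjusted p = 0.00127). Pgls, which acts second, was 31.8, 37.2 and 38.1 in the male-labelled libraries and 27.8, 30.5 and 25.0 in the female-labelled libraries (log2 fold change -0.35 ± 0.10, adjusted p = 0.0137), and its call was lost without male replicate 6 or female replicate 6 (adjusted p = 0.0519 and 0.0525). Pgd, the next NADPH-making enzyme, was higher instead, with 283, 299 and 299 in the male-labelled libraries and 478, 487 and 494 in the female-labelled libraries (log2 fold change 0.72 ± 0.05, adjusted p = 7.89e-06). In the non-oxidative branch, transaldolase (Taldo1) was 221, 264 and 268 in the male-labelled libraries and 448, 438 and 435 in the female-labelled libraries (log2 fold change 0.81 ± 0.08, adjusted p = 3.66e-05). Pgd and Taldo1 were thus 1.65-fold and 1.76-fold higher, with no overlap of groups. Transketolase (Tkt) was 409, 402 and 407 in the male-labelled libraries and 416, 408 and 409 in the female-labelled libraries, and its 95% interval for the log2 fold change ran from -0.10 to 0.13 (adjusted p = 0.798). Rpia, which makes ribose 5-phosphate, was 6.26, 6.63 and 6.22 in the male-labelled libraries and 6.47, 6.32 and 6.60 in the female-labelled libraries, with an interval from -0.20 to 0.23 (adjusted p = 0.868). For these 2 genes no difference was detectable, and the intervals bound what could have been missed. The exons of G6pdx overlap Ikbkg on the opposite strand over 13.6% of their length, and those of Pgls overlap Fam129c on the same strand over 20.6%.

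The share of each isoform in its family, per kilobase of coding sequence, does not change when all values of a library are scaled by 1 factor. Hk2 made up 51.0%, 64.7% and 66.1% of the hexokinase sum in the male-labelled libraries and 33.6%, 33.2% and 33.5% in the female-labelled ones, so Hk2 led in the former and Hk1 in the latter. Pdk4 made up 25.4%, 24.1% and 22.2% of the PDH kinase sum against 82.8%, 80.6% and 77.7%. Pdk1 led in the male-labelled libraries, with a mean of 55.3%, and made up 12.5% in the female-labelled ones. The PDH kinase sum itself was 2.07-fold higher in the female-labelled libraries (648 ± 21.3 against 313 ± 89.5 per kilobase, SD, n = 3 each), although 3 of its 4 members were lower. Pfkfb3 went from a mean of 96.6% to 84.2% of its family, while Pfkfb2 went from 2.80% to 10.4% and Pfkfb4 from 0.594% to 5.40%.

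Other families kept their leading isoform. Slc16a3 was 76.3% of the lactate carriers in the male-labelled and 65.1% in the female-labelled libraries, and Pygb was 70.6% and 90.2% of the phosphorylases. Slc2a1 went from 97.3% to 98.7%, Eno1 from 96.9% to 99.6% and Ldha from 99.5% to 98.4% of their families, while Pgm2 went from 86.0% to 82.9% and Aldoa from 99.86% to 99.98%. For 10 of the 11 families the 3 shares of 1 group did not overlap those of the other (exact permutation test, two-sided, p = 0.1, which is the smallest p that 3 against 3 libraries can give, and 0.11 after Benjamini-Hochberg adjustment over the 11 families). Pfkl went from 59.2% to 55.0% of the phosphofructokinases, with overlapping groups (exact permutation p = 0.3). A test of this size cannot pass the threshold of 0.05.

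**Figure D4:**
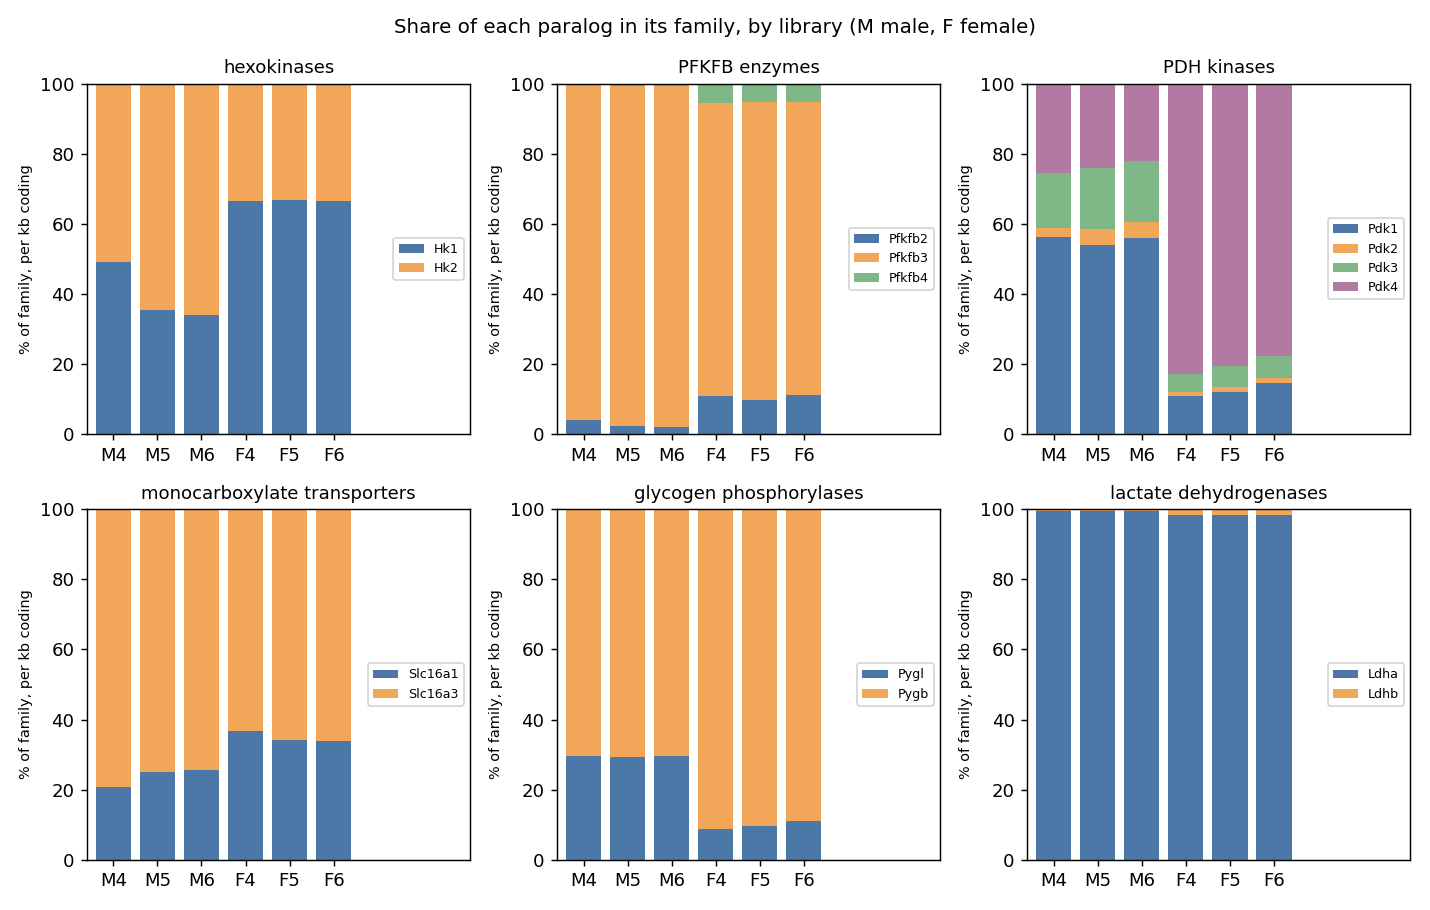
Share (%, per kilobase of coding sequence, vertical axis) of each isoform in 6 gene families, 1 stacked bar per library (M4 to M6 male-labelled, F4 to F6 female-labelled). Pdk4 takes 22.2% to 25.4% of the PDH kinase bars in the male-labelled libraries and 77.7% to 82.8% in the female-labelled ones, and Hk1 passes Hk2 in each of the 3 female-labelled libraries.

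Within the male-labelled group, replicate 4 differed from the mean of replicates 5 and 6 by at least 1.3-fold on the (value + 1) scale, a limit chosen after the values were seen, for 14 of the 44 members (31.8%) and for 2393 of the 12568 tested genes (19.0%). It was higher for 10 members: Gys1, Gbe1, Pgm2, Pdk1, Pdk3, Pdk4, Pfkp, Slc2a3, Gpi1 and Aldoc. It was lower for 4 members: Hk2, Pfkfb3, Ppp1r3c and Pfkfb4. Over all tested genes it was higher for 1069 and lower for 1324. Genes that were lower in the female-labelled libraries were thus found on both sides, and male replicate 4 lay nearer to the female-labelled values for Hk2, Pfkfb3 and Ppp1r3c and farther from them for Gys1, Gbe1 and Pdk1. Acta2 was also highest in this library among the male-labelled ones, at 134 against 56.4 and 45.9, and its part in these values was not tested. Without male replicate 4, 33 members were called lower and 7 higher, beside 4374 lower and 4739 higher of the 12187 genes tested in that fit.

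**Figure D5:**
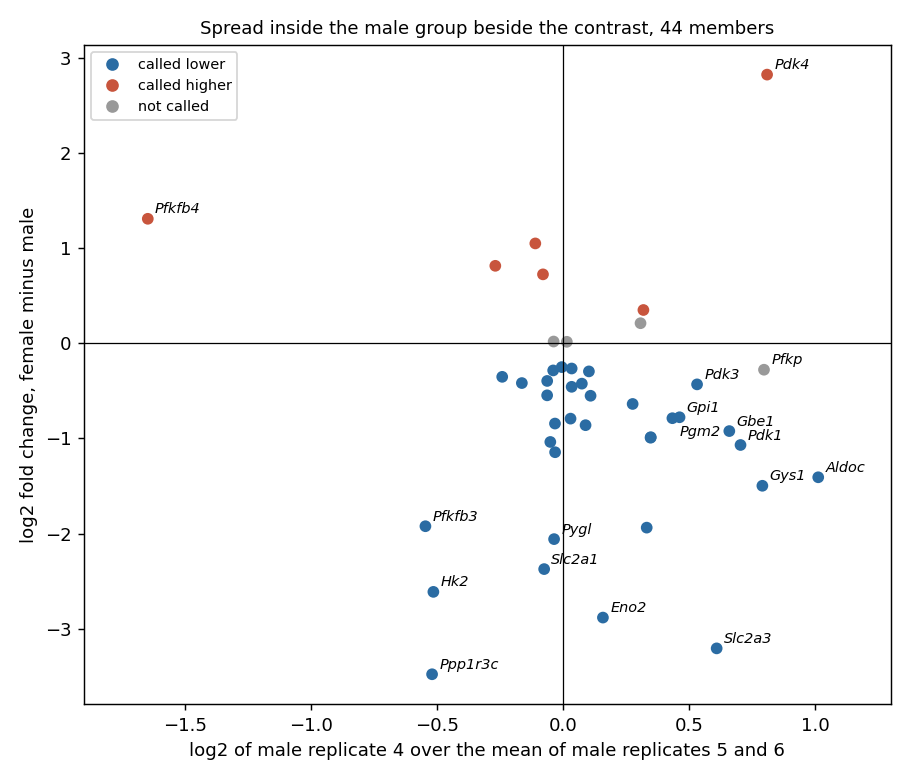
Each point is 1 of the 44 members, with the log2 ratio of male replicate 4 to the mean of male replicates 5 and 6 on the horizontal axis and the log2 fold change of female-labelled against male-labelled libraries on the vertical axis. Hk2, Pfkfb3, Ppp1r3c and Pfkfb4 lie to the left of 0 by more than the other members, and Pdk4, Pfkp, Gys1 and Aldoc lie farthest to the right.

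Other genes of glucose metabolism, outside the 44, were called in shares close to those of all genes. Of 70 tested, 27 were lower (38.6%), 22 higher (31.4%) and 21 not called, beside 34.6% and 34.6% of all tested genes, with a median log2 fold change of -0.10. Some were tested through 1 group only, so that their calls could go 1 way only, among them Slc16a7, Pgm5 and Ppp1r3g (male-labelled values) and Ppp1r3a (female-labelled values). Without all such genes, 23 of 65 were lower (35.4%) and 21 higher (32.3%), with a median of -0.02. The list was drawn up by pathway, with earlier results of these data known. Other transport genes gave 5 lower and 1 higher of 7 (4 and 1 of 6 without Slc16a7), and other glycogen genes 10 lower and 6 higher of 20 (8 and 5 of 17 without Pgm5, Ppp1r3g and Ppp1r3a). Other glycolysis genes gave 6 lower and 5 higher of 18, gluconeogenesis 2 lower and 0 higher of 3, other pentose phosphate genes 0 lower and 3 higher of 5, hexosamine and UDP-glucose genes 2 lower and 1 higher of 5, and glucose sensing genes 2 lower and 2 higher of 4. Among the other 8 genes of PDH and pyruvate entry 0 were lower and 4 higher: the core subunits Dlat and Pdhx and the PDH phosphatases Pdp1 and Pdp2, which switch the complex on and which, like the subunits, are named after their values were seen (0.32, 0.25, 0.91 and 0.96 on the log2 scale). Among genes with a mean of at least 5 over the 6 libraries, the largest decreases were Ppp1r3b, another glycogen-targeting subunit (307, 315 and 348 against 42.6, 45.0 and 54.0, log2 fold change -2.76 ± 0.10, adjusted p = 1.23e-07), Txnip, an inhibitor of glucose uptake (log2 fold change -2.11 ± 0.14, adjusted p = 4.32e-06), Emb, a chaperone of lactate carriers (log2 fold change -2.02 ± 0.11, adjusted p = 1.02e-06), and Khk, the fructose kinase (log2 fold change -1.80 ± 0.14, adjusted p = 7.55e-06). The largest increases were Slc2a13, a carrier of myo-inositol (2.45, 1.75 and 1.77 against 22.8, 19.8 and 17.0, log2 fold change 2.80 ± 0.14, adjusted p = 8.41e-07), Akr1b3, an aldose reductase (log2 fold change 1.28 ± 0.22, adjusted p = 0.000933), Arrdc4, a relative of Txnip (log2 fold change 1.13 ± 0.10, adjusted p = 1.61e-05), and Pgm2l1, which makes glucose 1,6-bisphosphate (log2 fold change 1.07 ± 0.14, adjusted p = 0.000207).

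In the authors' deposited table, 20 of the 44 members had a false discovery rate under 0.05 and were lower in the female-labelled group, and 5 were higher, against 13.8% and 12.0% of the 13595 genes of the authors' deposited table. Of the 40 members called in the limma fit, 15 had a false discovery rate of 0.05 or more in the authors' deposited table, and 0 were called there and not in the limma fit. The 15 included the glycolytic genes Pfkl, Aldoa, Pgk1, Eno1, Pkm and Ldha and the PDH genes Pdk2, Pdk3, Pdha1 and Pdhb. The rest were Pgm1, Pgm2 and Pygb of glycogen and G6pdx and Pgls of the pentose phosphate pathway. Their false discovery rates there ran from 0.0551 (Pgm2) to 0.581 (Eno1).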

How the data were processed

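Poly(A) RNA was sequenced in 6 libraries, 3 labelled male and 3 labelled female, per the labels' protocols (Trizol and a column kit, Kapa HyperPrep libraries). Bowtie2, RSEM, edgeR and the mouse build mm39 are named in the submitters' processing notes, with no role for each. The 6 value columns hold a deposited signal, normalized read counts; 100% of values were whole multiples, within 0.01, of the value of 1 read in their library. The authors thus divided whole reads by 1 factor per library. A deposited score is the signed fold change of female against male, and the deposited p-value columns hold p and the false discovery rate (FDR), per the file headers. The rule that kept genes as detectable is not given in the sources used here.

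limma 3.58.1 (R 4.3.3, eBayes with a trend) was run on log2(value + 1) over the 12568 genes that reached a value of 1 in 3 or more libraries, with Benjamini-Hochberg adjustment over them and a threshold of 0.05. This scale understates changes of low genes. Alternatives were median-ratio and quantile scaling, no filter, a minimum of 10 reads per library, a smaller pseudocount (0.1), edgeR 4.0.16 and DESeq2 1.42.0 on the recovered reads, the replicate number as a block, each library left out, and a fold limit; isoform shares were also computed per transcript length and with no length, both chosen after seeing the data. The code was tested on simulated reads. Same-numbered libraries did not deviate together (r = -0.09, -0.03 and -0.17 over 12568 genes), so numbers were not taken to pair libraries.

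The members and lists were chosen with earlier results of these data known. Per-library values are given for members with a called log2 fold change of at least 1 in size, for those called against their step and for those not called, and other genes are named as the 4 largest per direction with a mean of at least 5 over the 6 libraries. Genes named outside this rule, after their values were seen, are said to be so. Coding lengths, exon overlaps and shared 50-base words came from GENCODE M21 (GRCm38), and promoter windows from RefSeq (GRCm38.p6); as the submitters' build differs, no other coordinates are given. Each value column was matched to a sample by its title.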

Additional observations from a re-analysis of the deposited data

How the results depend on the processing

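Of 612 recomputed fold changes of the 44 members, 601 kept their direction and their side of the threshold, 9 lost the call, 2 gained it and 0 changed direction; 39 members kept both in every alternative that gave them a value. The members called lower numbered 34 with median-ratio scaling, quantile scaling, no filter, a pseudocount of 0.1, edgeR and DESeq2, 33 with at least 10 reads in every library, and 31 to 33 with 1 library left out. The members called higher numbered 6 to 7 with 1 library left out, 7 with quantile scaling and 6 in the other fits over all calls. With a log2 fold change of at least 1 required, 13 members were lower and 3 higher, and 1519 of all tested genes were lower and 1070 higher. Over all genes, leaving out 1 library gave 3607 to 4374 lower and 3497 to 4739 higher calls, and edgeR on the recovered reads called 4391 lower and 4260 higher. Quantile scaling moved the share of calls that were higher to 55.3%. With the replicate number as a block, 33 members were lower and 6 higher, 8314 genes were called in all, and Eno1 (-0.26, adjusted p = 0.0526) was the 1 member whose call changed. Isoform shares kept their direction per transcript length, with no length and with each library left out, and were not computed with quantile scaling. With 3 libraries per group and no named source of replicates, precision is limited by their number, and for Aldoc by depth.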

Other observations

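Of the 5 other pentose phosphate genes tested, 3 were higher and 2 (H6pd and Shpk) were not called. Prps1 and Prps2, which make phosphoribosyl pyrophosphate for nucleotides, had log2 fold changes of 0.86 ± 0.09 and 0.66 ± 0.07 (limma, adjusted p = 5.28e-05 and 3.90e-05), and Rpe, the epimerase of the non-oxidative branch, 0.54 ± 0.07 (adjusted p = 0.000133). In each of these 3 genes the 3 female-labelled values lay above the 3 male-labelled ones. H6pd, the oxidative enzyme of the endoplasmic reticulum, was 542, 569 and 586 in the male-labelled libraries and 527, 518 and 538 in the female-labelled libraries and was not called (adjusted p = 0.159). In hexosamine synthesis, Gfpt1 and Gfpt2, which divert fructose 6-phosphate into this route, were at 57.2% and 59.4% of the male-labelled level (adjusted p = 0.000918 and 0.000668), while Uap1, which makes UDP-N-acetylglucosamine, was 47.0, 51.4 and 54.0 in the male-labelled libraries and 63.2, 63.6 and 61.9 in the female-labelled libraries (log2 fold change 0.30 ± 0.07, adjusted p = 0.00445). The carriers of pyruvate into mitochondria, Mpc1 and Mpc2, were not called (adjusted p = 0.827 and 0.627), with overlapping groups. These genes are named after their values were seen.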
